A study of Mus musculus with 36 samples.

Results

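The genes described here are 40 markers of endothelium, the cells that line blood vessels, measured in whole mouse embryos after their mothers had drunk ethanol or nicotine early in pregnancy. A gene was a member if its symbol was on a list of endothelial genes. Its brightest probe on the Illumina bead array stood for it, and it was analysed if that probe reached an intensity of 32 on at least 12 of the 36 arrays. All 40 were on the array and 31 passed, out of 9683 genes that did. The embryos were male C57BL/6J, the common inbred black laboratory strain, collected whole at 9.5 days post coitum. Mothers drank water (Control), 10% ethanol (Ethanol) or nicotine free base at 100 µg/ml (Nicotine) between day 0.5 and day 8.5, so the embryos were collected after the exposure had ended. Each group held 12 embryos with 1 array each. The drink was taken voluntarily and the dose that reached an embryo is not given in the labels. Litters are not recorded in the labels, so embryos of 1 mother cannot be recognised and the p-values cover the spread between these embryos alone.

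Endothelial cells arise in the early embryo from mesoderm, in part together with the first blood cells, under the ETS factor Etv2 and signals of the VEGF family. They join into a plexus that is remodelled into arteries and veins by VEGF, angiopoietin, Notch, apelin and BMP signals, and they hold together by junctions built on VE-cadherin. At the stage collected here the heart beats and blood already circulates, and the endocardium, the lining of the heart, shares most endothelial markers.

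Arrays had nearly equal distributions, with a median intensity of 10.7 to 10.8. Replicates 1 to 6 and 7 to 12 of every group stood apart over many genes, and what divides these sets is not in the labels. Of the 31 endothelial genes, 25 were brighter in replicates 7 to 12, with a median difference of 0.34 on the log2 scale against 0.06 over all 9683 genes, of which 58.1% were brighter there. The adaptor gene She (0.93) and the adhesion genes Pecam1 (0.81) and Icam2 (0.74) differed most between the sets, while Tek (-0.12) and Tal1 (-0.24) were dimmer in replicates 7 to 12. The counts and levels of the members are therefore also given within each set. Levels and differences are on the scale of log2(intensity + 16), which understates the change of dim probes.

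The 9 members that did not reach the minimum intensity include several of the best known endothelial genes. Kdr, the main signalling receptor for VEGF, had a mean intensity of 19.7 and reached 32 on 1 array. Dll4, the Notch ligand of arterial endothelium, averaged 15.3, and Erg, an ETS factor of mature endothelium, 10.4. The surface protein Clec14a averaged 4.80, and the surface protein Ecscr and the peptide ligand Apln were dimmer still, all below the array median. Flt4, the receptor for VEGFC in lymphatic vessels, reached 32 on 4 arrays, Lyve1, a hyaluronan receptor of lymphatic and other endothelium, on 3, and Stab2, a scavenger receptor, on 2. No measured member lay close to the minimum of 12 arrays: the fewest were 32 arrays for Fli1 and 34 each for Tie1 and She. A dim probe gives no level for its gene, so these 9 genes are not described as absent.

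Lyve1 was dim with 1 exception in each group. Control embryo 3 read 55.6, Ethanol embryo 8 read 44.9 and Nicotine embryo 1 read 140, against group medians of 7.03, 10.3 and 4.78. The same 3 embryos had the highest mean level of 7 genes of visceral yolk sac endoderm in their group, at 10.99, 10.83 and 11.61 on the log2 scale against medians of 6.44, 6.67 and 6.25. Yolk sac tissue in these samples was not tested as a source of the Lyve1 signal.

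Across embryos most endothelial genes varied as 1 block. After the mean of each group and set was removed, the 465 pairs among 31 genes had a median Pearson r of 0.62 over 36 embryos, 0.64 within replicates 1 to 6 and 0.53 within 7 to 12 (18 embryos each). These values share the same arrays and the same whole-embryo RNA and are a description, as are all correlations here. Plvap, which forms the diaphragms of endothelial pores, had an r of 0.96 with the mean of the other members. Mmrn2, a matrix protein of vessels, and Esam, an adhesion molecule of endothelial junctions, were at the same value. Gja4, an arterial gap junction protein, and Tie1, a receptor that works with Tek, had an r of 0.94, and Cdh5, VE-cadherin, 0.93. Without the 2 embryos farthest from the middle, Ethanol 3 and Nicotine 2, Plvap stood at 0.93, Esam at 0.94 and Cdh5 at 0.89. For these 3 genes the pattern did not rest on those embryos. Cd34 fell further, from 0.79 to 0.59, Icam2 from 0.70 to 0.59 and Fli1 from 0.69 to 0.60, while Notch4 rose from 0.50 to 0.57.

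**Figure D1:**
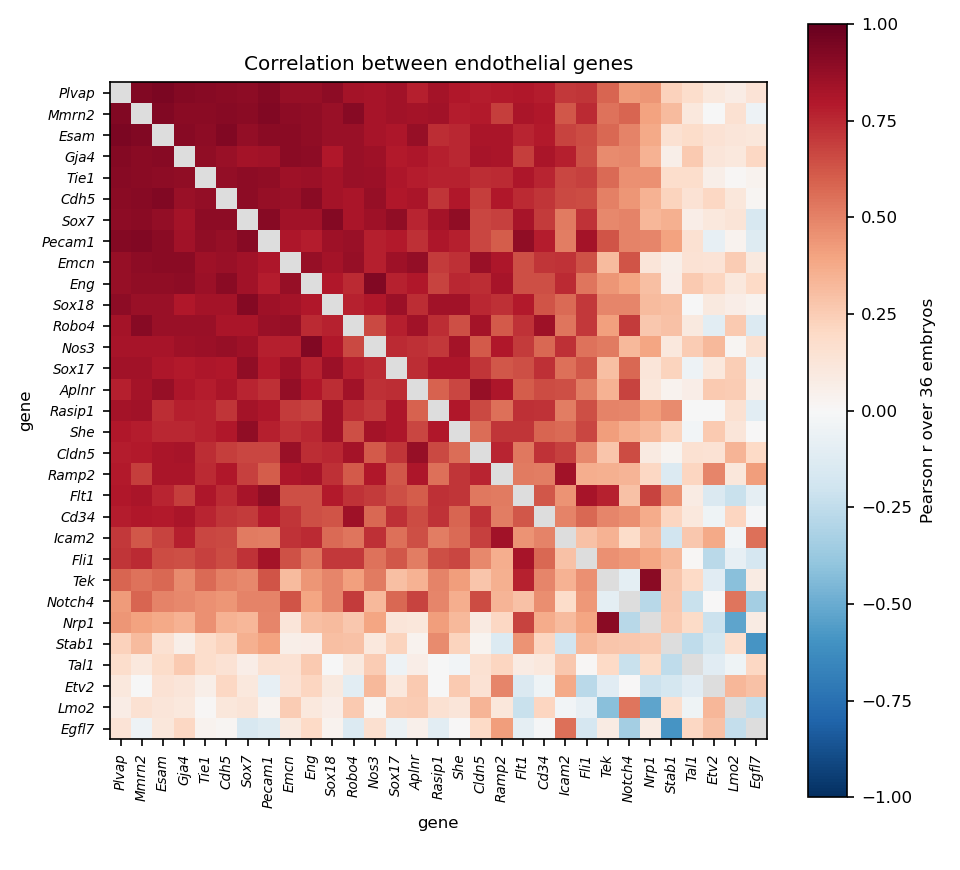
Pearson correlation between the 31 measured endothelial genes over 36 embryos, after group-and-set means were removed; colour runs from blue at -1 to red at 1, and genes are ordered by their correlation with the other members. The upper left block from Plvap to Fli1 is red, while Stab1, Tal1, Etv2, Lmo2 and Egfl7 at the lower right are pale.

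A few members stood outside this block. The r with the mean of the other members was 0.54 for the angiopoietin receptor Tek and 0.38 for Nrp1, a co-receptor for VEGF and semaphorins that neurons also carry. Without the 2 farthest embryos these were 0.33 and 0.13. Tek and Nrp1 had an r of 0.91 with each other and of 0.77 (Tek) and 0.67 (Nrp1) with Flt1, the VEGF receptor that binds VEGF and limits its signal. Embryo 6 was the brightest of its group for Tek in all 3 groups, at 782, 1003 and 1046. Flt1 itself lay nearer to the block, with an r of 0.81 with the mean of the other members and of 0.89 with Pecam1. Tek and Nrp1 were thus closer to each other than to the block.

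Tal1, Lmo2, Etv2 and Egfl7 were the farthest from the block. Tal1, a transcription factor of blood and endothelial precursors, had an r of 0.13 with the other members and of 0.96 (Spearman rho 0.95) with the mean of 10 other genes typical of primitive erythroid cells, which are the earliest red cells. With 5 genes of haematopoietic progenitors and megakaryocytes its r was 0.75. Its level in these embryos followed the erythroid genes and not the endothelial ones. Lmo2, the partner protein of Tal1, followed neither, with an r of 0.12 with the members and -0.02 with the erythroid genes. Etv2 had an r of 0.09 with the members, and Egfl7, a secreted vessel protein, 0.05.

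**Figure D2:**
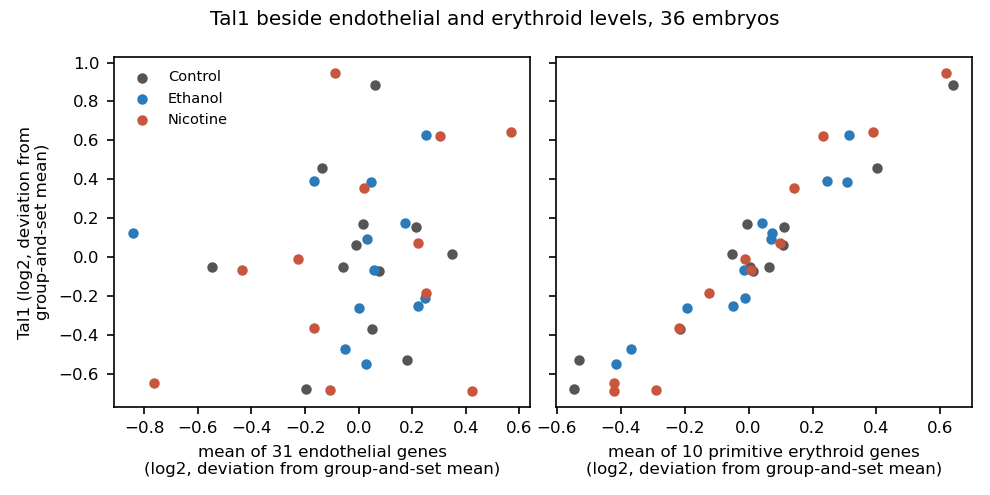
Tal1 in 36 embryos (1 point each, coloured by group) against the mean of the 31 endothelial genes (left) and of 10 primitive erythroid genes (right), as log2 deviations from group-and-set means. The points are scattered on the left and lie near a line on the right, where r is 0.96.

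For some members the probe decided the pattern. Stab1, a scavenger receptor of endothelium and macrophages, had an r of 0.21 by its brightest probe, with a mean intensity of 7376. Its other kept probes, with means of 69.7 and 67.7, had an r of 0.89 and 0.51. Without the 2 farthest embryos these stood at 0.84 and 0.35, against 0.28 for the bright probe. Only the probe at 69.7 therefore varied clearly more like the endothelial block than the bright one. Whether the bright probe reads Stab1 alone was not tested. The second probe of Egfl7 had an r of -0.23, and the other probes of Nrp1 0.36 and -0.24. Second probes of Cdh5 (0.91), Sox7 (0.86) and Pecam1 (0.79) and both others of Nos3 (0.92 and 0.90) also varied with the members. The second probe of Sox17 did so less, with an r of 0.60 (0.23 in replicates 7 to 12) against 0.85 for its first. Without the 2 farthest embryos the second probe of Pecam1 stood at 0.63 and its first at 0.87.

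Promoters of members that varied together and of members that did not are shown here, since ETS factors such as Fli1 and Etv2 bind many endothelial promoters. RefSeq promoters (mouse build GRCm38.p6, 250 bases before to 50 after the gene start) were on hand for 17 of the 31 genes. The ETS motif AGGAAG or CGGAAG, on either strand, was in 13 of them (76.5%) and in 46.4% of 27025 promoters of the same length. SOX motifs (ACAATG or ACAAAG) were in 17.6% against 28.8% of all, a motif of GATA factors, spelled AGATAA, in 11.8% against 11.4%, the E-box spelled CAGCTG in 17.6% against 16.1%, and the motif of FOX factors spelled TAAACA in 0 against 13.4%. The motifs were searched on both strands; letters that match are a description and not evidence of binding. The following 5 promoters are those of the 3 matched genes with the highest mean correlation with the other members (Gja4 at chr4:127313990-127314289, minus strand; Tie1 at chr4:118489800-118490099, minus strand; Emcn at chr3:137340828-137341127, plus strand) and of the 2 with the lowest (Egfl7 at chr2:26580833-26581132, plus strand, the first of 3 listed; Etv2 at chr7:30635803-30636102, minus strand). Each is written 5′ to 3′ on the gene's strand, with ETS motifs in capitals; CTTCCT is AGGAAG read on the other strand.
Gja4: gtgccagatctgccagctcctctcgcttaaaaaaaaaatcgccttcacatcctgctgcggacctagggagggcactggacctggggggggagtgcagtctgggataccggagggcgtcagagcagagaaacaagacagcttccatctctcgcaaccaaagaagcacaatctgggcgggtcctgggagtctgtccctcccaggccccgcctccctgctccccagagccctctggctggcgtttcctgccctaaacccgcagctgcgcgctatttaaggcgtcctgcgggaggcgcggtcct
Tie1: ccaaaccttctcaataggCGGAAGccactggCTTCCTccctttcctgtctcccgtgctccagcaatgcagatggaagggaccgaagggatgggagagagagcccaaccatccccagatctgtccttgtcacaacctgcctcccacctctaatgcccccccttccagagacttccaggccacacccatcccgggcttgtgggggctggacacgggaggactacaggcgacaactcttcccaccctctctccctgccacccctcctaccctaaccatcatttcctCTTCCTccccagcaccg
Emcn: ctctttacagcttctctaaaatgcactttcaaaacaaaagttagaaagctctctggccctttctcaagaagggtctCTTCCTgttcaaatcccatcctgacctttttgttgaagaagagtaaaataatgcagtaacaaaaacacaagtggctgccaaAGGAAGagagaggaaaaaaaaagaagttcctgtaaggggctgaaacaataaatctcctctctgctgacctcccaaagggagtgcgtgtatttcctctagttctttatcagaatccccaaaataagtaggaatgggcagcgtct
Egfl7: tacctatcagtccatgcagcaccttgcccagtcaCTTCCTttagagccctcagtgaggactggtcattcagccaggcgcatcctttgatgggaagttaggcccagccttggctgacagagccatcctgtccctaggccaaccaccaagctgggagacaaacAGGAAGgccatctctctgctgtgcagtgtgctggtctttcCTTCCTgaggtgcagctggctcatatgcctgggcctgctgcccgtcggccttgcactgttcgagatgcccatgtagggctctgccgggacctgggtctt
Etv2: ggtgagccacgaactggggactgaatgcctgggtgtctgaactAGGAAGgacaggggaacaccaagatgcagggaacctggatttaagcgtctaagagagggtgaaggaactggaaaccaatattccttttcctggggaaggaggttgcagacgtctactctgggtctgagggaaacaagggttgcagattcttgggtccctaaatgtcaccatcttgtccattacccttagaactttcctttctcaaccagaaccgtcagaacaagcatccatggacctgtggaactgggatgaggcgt
The numbers of ETS motifs were 0 in Gja4, 3 in Tie1, 2 in Emcn, 3 in Egfl7 and 1 in Etv2. The count did not separate the genes of the block from the other 2 in these examples.

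The comparison of nicotine with control asks whether the endothelial genes of the embryo differ after nicotine was withdrawn. Of the 31 genes 27 were below control and 4 above, with a median difference of -0.23, while 45.5% of all 9683 genes were below control with a median of 0.01. None of the 31 passed an adjusted p of 0.05 with limma (0 of 31, lowest adjusted p 0.593), where 1 of 16927 probes on the array passed (0.00591%). With replicate number as a block 0 of 31 passed (lowest adjusted p 0.0828, for Fli1), where 194 probes (1.15%) passed, 113 higher (0.668%) and 81 lower (0.479%). With the sets as a block 0 of 31 passed, where 3 probes did (0.0177%), 2 higher (0.0118%) and 1 lower (0.00591%). At an unadjusted p under 0.05 there were 5 members (16.1%) against 6.56% of all genes without the block, 14 members against 17.1% of all genes with it, and 6 members against 12.5% of all genes with the sets as a block. The groups overlapped in all 31 genes, as they did in all 9683 genes of the array (0% separated) in each of the 3 comparisons. In whole-embryo RNA, fewer endothelial cells and less RNA per cell cannot be told apart.

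Since these genes vary as a block, the mean over the 31 genes was also taken per embryo. It was 8.68 ± 0.30 (SD, n = 12) in Control, ranging from 7.96 in embryo 4 to 8.94. It was 8.48 ± 0.40 in Nicotine, ranging from 7.60 in embryo 2 to 9.01. The groups overlapped over most of their range. The difference was -0.21, and the 12 differences between embryos of equal number had an SD of 0.410, with 9 of 12 lower. The labels do not pair these embryos, and the pairing was taken from the data. Without Nicotine embryo 2 the difference was -0.13, with 25 of 31 genes below control. That embryo was the lowest of its group for 18 of the 31 genes, as Control embryo 4 was for 22 and Ethanol embryo 3 for 23. In replicates 7 to 12 the levels were 8.86 ± 0.10 in Control and 8.59 ± 0.31 in Nicotine (n = 6 each), and in replicates 1 to 6 they were 8.50 ± 0.32 and 8.36 ± 0.47.

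**Figure D3:**
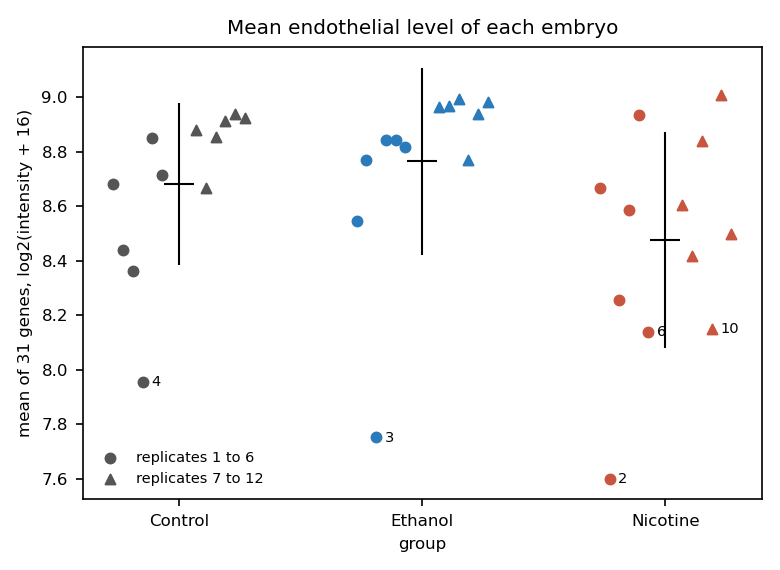
Mean log2(intensity + 16) of the 31 endothelial genes in each of 36 embryos by group; circles are replicates 1 to 6, triangles 7 to 12, and lines mark the mean and SD of 12 embryos. Control 4 (7.96), Ethanol 3 (7.75) and Nicotine 2 (7.60) lie lowest in their groups, and Nicotine embryos spread more widely than the others in replicates 7 to 12.

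The measured receptors of the VEGF and angiopoietin pathways had means below control, and none passed the test. Flt1 was -0.25 (SE 0.165) from control and lower in 10 of 12 pairs of equal number, with intensities of 268, 648 and 749 (lowest, median and highest) in Control and 226, 518 and 750.4 in Nicotine. Tie1 was at -0.31 (SE 0.179), Tek at -0.14 (SE 0.152) and Nrp1 at -0.12 (SE 0.131). The lowest values of Flt1, Tie1 and Tek in Nicotine all came from embryo 2, and the ranges of the groups overlapped.

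The 7 junction and surface genes had means below control. Esam had intensities of 539, 1064 and 1222 (lowest, median and highest) in Control and of 244, 728 and 1175 in Nicotine. The Nicotine embryos had a lower median and a longer lower end than the controls, and the ranges overlapped. The difference was -0.45 (SE 0.185, adjusted p 0.593, limma), with -0.49 in replicates 1 to 6 and -0.41 in 7 to 12, and 9 of 12 pairs lower. Emcn, endomucin, a sialoglycoprotein of the endothelial surface, ran from 464 over a median of 1177 to 1589 in Control and from 341 over 833 to 1389 in Nicotine. Its difference was -0.47 (SE 0.226, adjusted p 0.755), with -0.42 and -0.52 in the 2 sets.

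Pecam1, an adhesion molecule between endothelial cells, had median intensities of 182 in Control and 116 in Nicotine. It was at -0.41 (SE 0.263), lower in 11 of 12 pairs by its first probe, and at -0.15 by its second. Cldn5, the claudin of endothelial tight junctions, was at -0.34 (SE 0.180) and Cd34, a sialomucin of endothelium and blood progenitors, at -0.29 (SE 0.161, 10 of 12 pairs lower). Cdh5 was at -0.23 (SE 0.200) and by its second probe at -0.37. Icam2, an adhesion molecule for leukocytes, was at -0.18 (SE 0.181). None of these 7 genes passed the test.

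**Figure D4:**
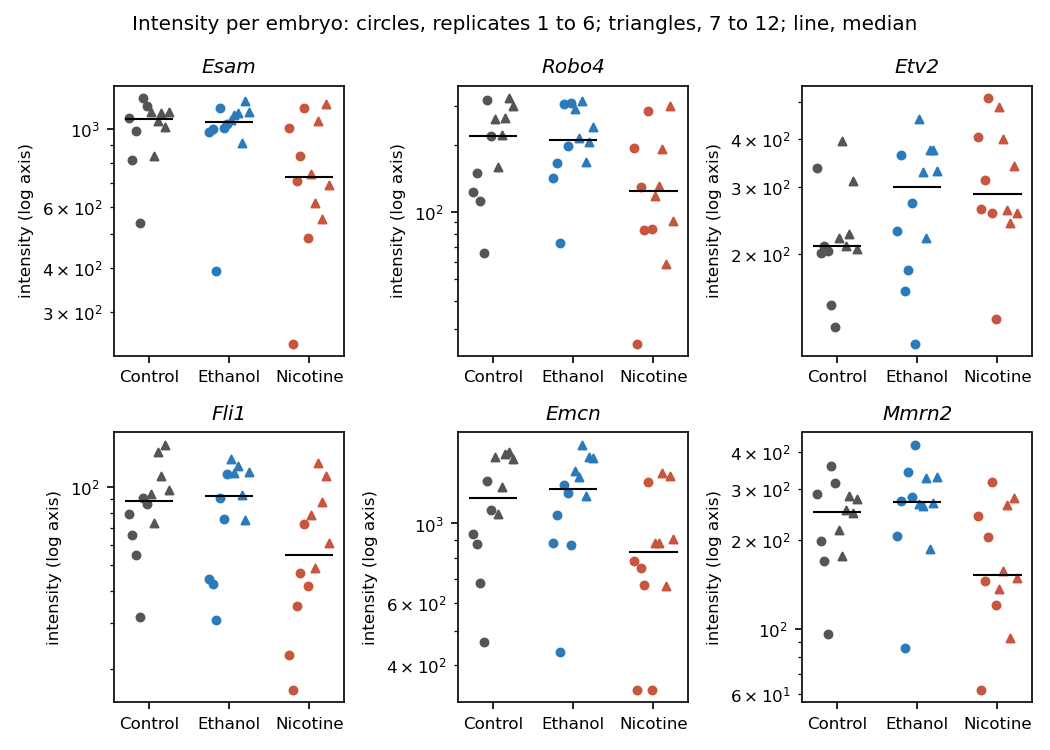
Intensity (log axis) per embryo of the 6 endothelial genes with the smallest unadjusted p for nicotine against control; circles are replicates 1 to 6, triangles 7 to 12, and the line is the median of 12 embryos. Esam, Robo4, Fli1, Emcn and Mmrn2 have lower medians in Nicotine than in Control and Etv2 a higher one (288 against 211), with overlapping points in every panel.

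Transcription factors lay on both sides of control. Fli1, the ETS factor that endothelium keeps, had intensities of 31.5, 88.8 and 146 in Control, 30.7, 92.3 and 129 in Ethanol and 16.5, 54.9 and 125 in Nicotine. It was lower after nicotine in 11 of 12 pairs, at -0.48 (SE 0.223, adjusted p 0.716, limma; adjusted p 0.0828 with the replicate block). Its lower values are close to the minimum intensity of 32, where the scale compresses differences.

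Etv2, the ETS factor that starts the endothelial and blood lineages and is normally lost as vessels mature, had a mean above control. Its intensities were 129, 211 and 396 in Control, 117, 300.8 and 453 in Ethanol and 135, 288 and 512 in Nicotine. The Nicotine embryo was the higher of the pair in 12 of 12 pairs of equal number, a pattern found in 24 of 9683 genes (0.248%). The difference was 0.43 (SE 0.196, adjusted p 0.714, limma; adjusted p 0.111 with the replicate block), with 0.54 in replicates 1 to 6 and 0.32 in 7 to 12. Within groups embryo 6 was the lowest in each group, and the groups overlapped. The pairs are not given in the labels. Over all kept probes, embryos of equal number correlated at a mean of 0.589 and other numbers of the same set at 0.474.

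The SOX factors that shape arteries and lymphatic vessels differed little: Sox18 was at -0.18 (SE 0.151), Sox7 at -0.11 (SE 0.217) and Sox17 at -0.01 (SE 0.163). The second probe of Sox17 was at 0.093. Lmo2 was at 0.11 (SE 0.120) and Tal1 at -0.06 (SE 0.186). Each of these differences was within 1.5 times its SE, and the blood-related pair lay on either side of control.

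Of the guidance and matrix genes, Robo4, an endothelial receptor of the roundabout family, showed the largest difference of the members. Its intensities were 65.8, 220.1 and 324 in Control and 25.7, 124 and 299.8 in Nicotine. The difference was -0.62 (SE 0.270, adjusted p 0.669, limma), a 1.53-fold lower mean, with -0.39 in replicates 1 to 6 and -0.85 in 7 to 12. Mmrn2 had intensities of 95.6, 251 and 357 in Control and 61.7, 153 and 316 in Nicotine, and was at -0.44 (SE 0.216, adjusted p 0.769). Both genes were lower in 9 of 12 pairs. Egfl7 was at -0.06 (SE 0.066), between 2643 and 4119 in Control and between 2847 and 3795 in Nicotine, with the smallest SE of the members.

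The signalling genes ran from well below control (Gja4) to about its level (Notch4). Gja4 was at -0.48 (SE 0.259), with medians of 311 in Control and 213 in Nicotine. Eng, a co-receptor for BMP and TGF-beta ligands, was at -0.31 (SE 0.161), and Aplnr, the apelin receptor of venous and early endothelium, at -0.26 (SE 0.176). Ramp2, the partner of the adrenomedullin receptor, was at -0.23 (SE 0.161). Rasip1, a protein needed for vessel lumens, and Nos3, the endothelial nitric oxide synthase, were both at -0.16 (SE 0.187 and 0.210). Plvap was at -0.26 (SE 0.144), and Notch4, a Notch receptor of endothelium, at 0.03 (SE 0.139).

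Stab1 was at -0.00 by its bright probe and at -0.25 (SE 0.194) by the dimmer probe that varied with the members. She was at 0.35 in replicates 1 to 6 and at -0.27 in 7 to 12. It was the only member whose nicotine effect differed between the sets at an unadjusted p under 0.05 (p 0.0438, adjusted p 0.700, limma). Over all members, 23 of 31 were below control in replicates 1 to 6 (median -0.18) and 28 in 7 to 12 (median -0.30). Of the 31 members 22 were below control in both sets, as were 25.6% of all genes. The test of whether the nicotine effect differed between the sets called 0 members and 0 of 16927 probes, of which 1175 had an unadjusted p under 0.05. It does not test the levels of the sets themselves.

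**Figure D5:**
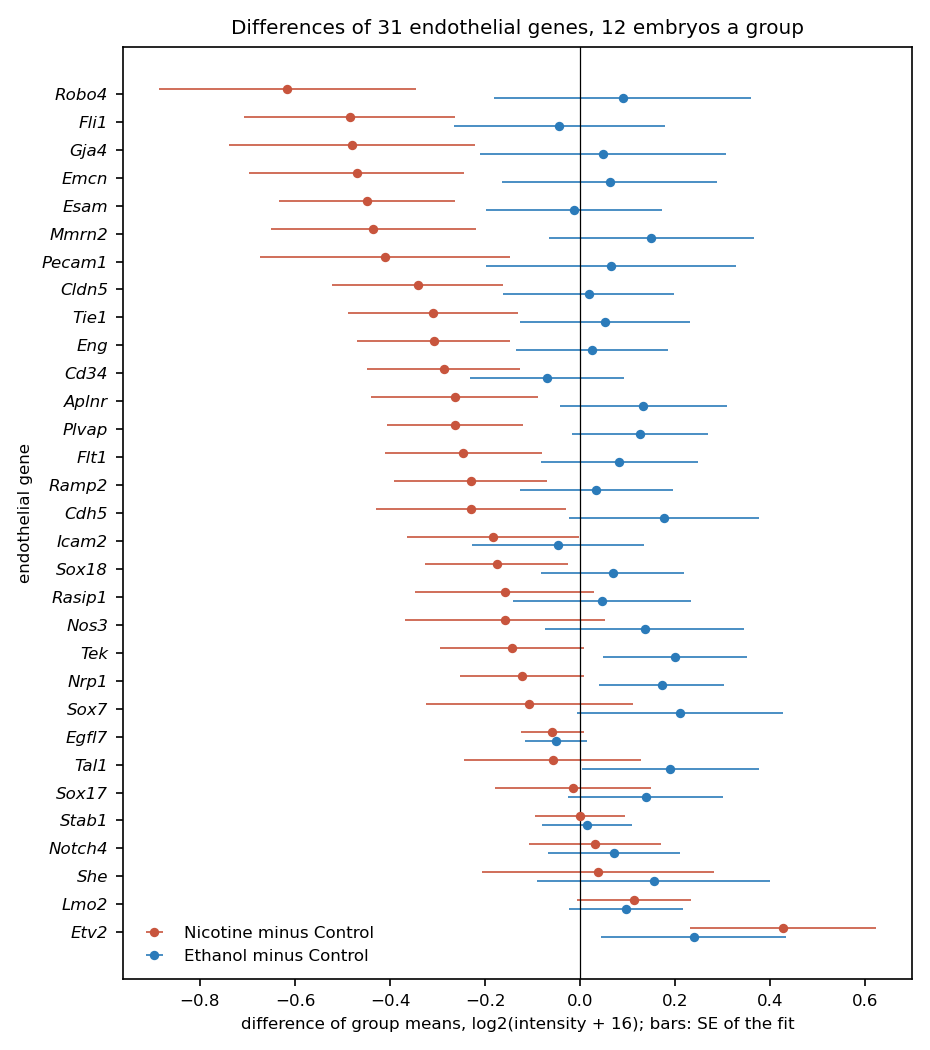
Difference of group means in log2(intensity + 16) for the 31 endothelial genes, nicotine minus control (red) and ethanol minus control (blue), with the SE of the limma fit as bars and 12 embryos a group. Red points run from -0.62 (Robo4) to 0.43 (Etv2) with 27 of 31 below 0, and blue points lie between -0.07 (Cd34) and 0.24 (Etv2).

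The comparison of ethanol with control, which shares its 12 control embryos with the comparison above, gave differences near 0. Of the 31 genes 5 were below control and 26 above, with a median of 0.07, where 45.7% of all genes were below with a median of 0.01. None passed with limma (0 of 31, lowest adjusted p 0.99998, and 0.990 with the replicate block). Of the 16927 probes 0 passed (0%), and only 177 had an unadjusted p under 0.05 without the block. No member had an unadjusted p under 0.05, where 0.87% of all genes did without the block and 4.35% with the replicate block.

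The 6 members with the smallest p after ethanol were the receptors Tek at 0.20 (SE 0.152) and Nrp1 at 0.17 (SE 0.131), the factors Etv2 at 0.24 (SE 0.196), Tal1 at 0.19 (SE 0.186) and Sox7 at 0.21 (SE 0.217), and Cdh5 at 0.18 (SE 0.200). Tek ran from 404 over a median of 640.1 to 782 in Control and from 544 over 675 to 1003 in Ethanol. The upper end in Ethanol was embryo 6. The third probe of Nrp1 stood at -0.12 after ethanol, against 0.17 and 0.19 for its 2 brighter ones.

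The mean over the members was 8.77 ± 0.34 (n = 12) in Ethanol, from 7.75 in embryo 3 to 8.99. The difference from control was 0.08, with an SD of 0.351 over the pairs, and it hung on single embryos: it was 0.02 without Control embryo 4 (16 of 31 genes below), 0.05 without Control embryo 3 (9 below) and 0.18 without Ethanol embryo 3 (1 below). In replicates 1 to 6 the levels were 8.60 ± 0.43 in Ethanol and 8.50 ± 0.32 in Control, and in replicates 7 to 12 they were 8.94 ± 0.08 and 8.86 ± 0.10 (n = 6 each). Below control were 10 of 31 genes in replicates 1 to 6 (median 0.09) and 6 in 7 to 12 (median 0.06), and 3 were below in both sets, against 23.4% of all genes. The test of whether the ethanol effect differed between the sets called 0 members and 0 probes. Of the 16927 probes 389 had an unadjusted p under 0.05.

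The 2 exposures were also set against each other; this comparison uses no control embryo, but each exposed group is shared with a comparison above. Of the 31 genes 29 were lower in Nicotine than in Ethanol and 2 higher, with a median of -0.32, where 48.3% of all genes were lower with a median of 0.00. None passed with limma (0 of 31, lowest adjusted p 0.712, and 0.148 with the replicate block), where 0 probes (0%) passed without and 69 (0.408%) with the block. Members with an unadjusted p under 0.05 numbered 11 (35.5%) against 5.77% of all genes, and 16 with the block against 15.1% of all genes.

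Plvap had intensities of 505, 1095 and 1334 in Ethanol and of 409, 779.9 and 1256 in Nicotine. Its difference was -0.39 (SE 0.144, adjusted p 0.712, limma), with -0.38 in replicates 1 to 6, -0.40 in 7 to 12 and 10 of 12 pairs lower. Mmrn2 was at -0.58 (SE 0.216, adjusted p 0.712), with intensities of 85.7, 270.0 and 423 in Ethanol. Robo4 was at -0.71 (SE 0.270, adjusted p 0.787), a 1.63-fold lower mean, with intensities of 72.9, 210.3 and 315 in Ethanol. These 3 groups of values overlapped between the exposures.

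Esam was at -0.44 (SE 0.185, adjusted p 0.887, limma), Emcn at -0.53 (SE 0.226, adjusted p 0.887) and Tek at -0.34 (SE 0.152, adjusted p 0.939). The 2 members with a higher mean in Nicotine were Etv2 at 0.19 (SE 0.196) and Lmo2 at 0.02 (SE 0.120). The mean over the members differed by -0.29, with an SD of 0.451 over the pairs and 8 of 12 lower. It was -0.38 without Ethanol embryo 3 and -0.21 without Nicotine embryo 2. Within sets 26 of 31 genes were lower in replicates 1 to 6 (median -0.26) and 30 in 7 to 12 (median -0.37).

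Genes of the same pathways outside the member list were taken from fixed lists. Of 13 measured genes among 23 further vessel genes, 12 were below control after nicotine (median -0.27), and 0 passed with limma with or without the block. Rhoj, a small GTPase of endothelium, was at -0.27, Cd93, a surface partner of Mmrn2, at -0.65 (SE 0.295), and Vcam1, a leukocyte adhesion molecule, at -0.27. Of the ligands and partners of VEGF, angiopoietin and apelin 8 of 11 were below control (median -0.06), of BMP and sphingosine phosphate genes 5 of 9 (median -0.03), and of other vessel transcription factors 7 of 11 (median -0.10). Of the Notch and arteriovenous genes 9 of 14 were below (median -0.11). In that list 1 gene passed with the replicate block only, Nr2f2, the factor of venous identity, at -0.37 (adjusted p 0.755 without and 0.0158 with the block, limma). It also passed with the block against ethanol, at -0.34 (adjusted p 0.0417, limma). Both calls were lost when some single replicates were left out. With the block, 0 probes passed for nicotine against control without replicate 6 or without replicate 7. Against ethanol 0 probes passed without replicate 2, 6 or 8. After ethanol 10 of the 11 vessel transcription factors were above control (median 0.11), and the other lists lay near 0. Above control were 8 of 13 further vessel genes (median 0.005) and 6 of 11 VEGF, angiopoietin and apelin genes (median 0.02). The same held for 4 of 14 Notch and arteriovenous genes (median -0.01) and 3 of 9 BMP and sphingosine phosphate genes (median -0.008). After ethanol 0 genes of the 5 vessel lists passed.

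Other cell types were followed by marker lists, and their part in the endothelial differences was not tested. All 4 measured endocardial genes (of 5) were below control after nicotine (median -0.13), and their mean level followed the mean of the members with an r of 0.85. It was lowest in Control embryo 4 (7.42), Ethanol embryo 3 (7.52) and Nicotine embryo 2 (7.54), the same embryos in which the members were lowest. Of 14 macrophage genes only 2 were measured, and their mean had an r of 0.78 with the members. Laptm5 was at -0.63 (adjusted p 0.447, and 0.0444 with the replicate block, limma) and Fcer1g at -0.41. The Laptm5 call was lost without replicate 6 or 7, where 0 probes passed with the block. Pericyte and smooth muscle genes (6 of 6 below control, median -0.07) had an r of 0.41, heart muscle genes (12 of 12 below, median -0.29) -0.04 and primitive erythroid genes (6 of 12 below, median -0.01) 0.14. Without the 2 farthest embryos, Ethanol 3 and Nicotine 2, the pericyte and smooth muscle genes had an r of 0.20 with the members. Endocardial genes then stood at 0.79 and macrophage genes at 0.71. The 12 erythroid genes counted include the members Tal1 and Lmo2. The heart muscle difference turned on Nicotine embryo 3: its level was 5.66, against medians of 10.80 in Nicotine and 10.45 in Control, and without it 1 of 12 genes was below control (median 0.08). The same embryo turned that list against ethanol, from 11 of 12 below (median -0.26) to 1 of 12 (median 0.15). Haematopoietic progenitor genes (2 of 5 below), yolk sac endoderm genes (4 of 7 below) and placental genes (2 of 3 below) had an r of 0.15, 0.23 and -0.23.

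In the lists of tissue around the embryo, leaving out single embryos changed the counts of yolk sac genes. For placental genes it changed the size of the differences and not their counts. After ethanol the 3 measured placental genes were below control (median -1.90, and -1.36 without Control embryo 3), and all 7 yolk sac genes were above it (median 0.45, and 0.13 with 2 of 7 below without Ethanol embryo 8). Against ethanol, nicotine embryos had 7 of 7 yolk sac genes lower (median -0.45, and -0.09 with 5 of 7 lower without Ethanol embryo 8) and 3 of 3 placental genes higher (median 0.95). The yolk sac genes after nicotine went from 4 to 6 of 7 below control without Nicotine embryo 1 and to 1 of 7 without Control embryo 3. None of these genes passed with limma. Leaving out embryos for these lists was chosen after seeing the data. The part of such tissue in the members' levels was not tested.

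The genes outside the list that varied most like the members were again mostly vessel genes. Of 9652 other genes, 49 (0.508%) had an r above 0.8 with the mean of the members over 36 embryos. The 10 highest were Cd93 (0.96), Thsd1 (0.95), Bgn (0.93), Scarf1 (0.92), and Adcy4, Vwf, Arhgef15, Gja5, Pcdh12 and Plxnd1 (each 0.91). Vwf is the von Willebrand factor of endothelium and platelets, Gja5 an arterial gap junction protein, Plxnd1 a semaphorin receptor of vessels and Bgn a matrix proteoglycan. All 10 were below control after nicotine, from -0.65 (Cd93, adjusted p 0.703, limma) to -0.10 (Arhgef15), and lay between -0.04 and 0.27 after ethanol. They were ranked on deviations from group-and-set means of the same arrays, so they are a description of these embryos. None of the 10 passed the test.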

How the data were processed

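Total RNA of 36 whole embryos was read on an Illumina bead array, 1 array per embryo. The values deposited by the authors give linear intensity; the submitters' processing notes name GenomeStudio 1.9.0, and how background was corrected or arrays normalized is not given in the sources used here. The 72 columns of a second deposited table could not be tied to embryos and were not used. Precision is limited by the number of arrays. Probes were named from the platform annotation (34885 of 45281 with 1 symbol, 18 with several, 10378 unnamed).

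Deposited values were taken to log2(intensity + 16), and the 16927 probes with an intensity of 32 or more on at least 12 arrays were fitted together with limma 3.58.1 in R 4.3.3 (lmFit and eBayes, a mean per group, two-sided), with Benjamini-Hochberg adjustment over all of them and a threshold of 0.05. The brightest probe stood for its gene. Replicate numbers occur in every group, so fits with replicate number as a block, or with the 2 sets (replicates 1 to 6 and 7 to 12), were alternatives. Deviations from group means correlated above 0.1 in 36 of 36 same-number pairs (mean 0.589, lowest 0.243), so the numbers were taken as pairs, from the data and not the labels; other numbers of the same set correlated at a mean of 0.474. With set means removed, 22 of 36 pairs exceeded 0.1 (mean 0.174). Over the 31 members alone, with set means kept, equal numbers correlated at 0.348 and other numbers of the same set at 0.227. Embryos that share only a set also exceed 0.1 on average, so this mark cannot show that equal numbers are pairs.

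All members were accounted for. Values are given by role, full statistics for the 6 members of smallest unadjusted p per comparison, up to 3 genes per other list, and the 10 other genes most correlated with the members. Members, lists and tests were chosen with earlier results of these data known. Other alternatives were the pseudocount, the intensity minimum, array scaling, the choice of probe and leaving out embryos. The steps were tested on simulated data. Promoter sequences are from RefSeq.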

Additional observations from a re-analysis of the deposited data

How the results depend on the processing

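Under every alternative run without leaving out embryos (replicate block, set block, a pseudocount of 1 or 64, no intensity minimum or one of 64, median centring, quantile normalization, the mean of a gene's probes or its second brightest probe) 0 members passed in each comparison and the mean differences kept their sign. The replicate block, which pairs embryos of equal number, changed no call of a member. The means were -0.21, 0.08 and -0.29 for nicotine against control, ethanol against control and nicotine against ethanol. Replicate numbers and sets occur equally often in every group, so neither block can change these means or their signs. With embryos or pairs left out these means ranged from -0.28 to -0.13, from 0.01 to 0.18 and from -0.38 to -0.21, and the members called from 0 to 1, 0 to 0 and 0 to 0. The 1 call was Fli1 after nicotine with the replicate block and without replicate 4 (-0.57, adjusted p 0.0370, limma). With the mean of probes or the second probe, signs turned for 2 genes, neither of them called: Sox17 stood at 0.039 (mean of probes) and 0.093 (second probe) for nicotine against control and at 0.0071 (second probe) against ethanol, and Egfl7 at 0.022 and 0.052 against ethanol. The third probes of Nrp1 and Stab1 were not run as alternatives; that of Nrp1 stood at -0.12 against 0.17 for ethanol against control and at 0.03 against -0.29 for nicotine against ethanol, and that of Stab1 at 0.03 against -0.00 for nicotine against control. The planned background correction was not run, because the uncorrected table could not be tied to embryos. Dim signal limits the 9 members under the minimum and compresses Fli1, Tie1 and She.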
